A study of Homo sapiens with 7 samples.

Results

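Complex I, the NADH:ubiquinone oxidoreductase, takes electrons from NADH at its flavin site, passes them along iron-sulfur clusters to ubiquinone, and pumps protons across the inner mitochondrial membrane. It is built from catalytic core subunits and a larger number of accessory subunits. The nuclear subunits carry gene names that begin with NDUF, while the remaining core subunits are encoded by mitochondrial DNA, and separate assembly factors put the parts together. Clear-cell renal cell carcinoma (RCC) is known for low mitochondrial respiration and for activity of the hypoxia-inducible factors (HIF). One NDUF-named gene, NDUFA4L2, is known as a HIF target in this tumor.

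The NDUF genes were examined in ACHN cells, a human RCC line, that overexpressed the long non-coding RNA HOTAIR. Members were chosen by name alone, as every non-control probe whose array gene name begins with NDUFA, NDUFB, NDUFC, NDUFS or NDUFV. This gave 48 probes of 43 genes, out of 42405 probes with 34809 gene names. ACHN-EV cells had been infected with a retrovirus carrying the empty pBabe-hygro vector (4 arrays) and ACHN-HOTAIR cells with the same vector carrying HOTAIR cDNA (3 arrays), and both were selected with hygromycin. Each array was a single-color Agilent expression array, with total RNA as the starting material and Cy3 as the dye. The labels do not say whether the arrays of a group came from separate infections or cultures, so p-values measure the spread between these samples, which may be technical. The 7 arrays shared 1 slide and 1 scan, but the 4 EV arrays filled its first row and the 3 HOTAIR arrays part of its second. Row and group therefore cannot be told apart. No depth is defined for an array, and the precision was limited by the number of arrays.

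Values are given as log2 intensity after subtraction of the array's own 75th percentile over all non-control spots, which had an intensity between 523 and 649. A probe was called detected on an array when the scanner software marked it as well above background, and a probe was tested when it was detected on every array of at least 1 group. The HOTAIR probe had the values -6.29, -6.97, -6.42 and -7.07 on EV 1 to 4, all below the detection call, and -3.12, -3.24 and -2.58 on HOTAIR 1 to 3, all above it (limma, adjusted p = 0.00162). The libraries therefore matched their labels. Of 8 renal epithelial line markers, 7 were detected on all arrays (among them PAX8, PAX2, KRT8, KRT18, VIM and MET) and CDH6 on none. Of 7 markers of blood, endothelial and stromal cells, ACTA2 was detected on all arrays, while CD3E, COL1A1 and COL3A1 were detected on none. PTPRC was well above background on 2 EV arrays and 1 HOTAIR array, PECAM1 on 1 EV array, and CDH5 on 3 EV arrays and 1 HOTAIR array.

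The probes on which the results turn are 60-base sequences, shown here as the array files give them, 5′ to 3′. The first pair belongs to the subunits whose HOTAIR arrays all lay above the EV arrays, and the other 2 are among the probes that read furthest below their group mean on the array EV 2. The NDUFV2 probe lies on the plus strand of chr18:9122594-9122653 and the NDUFB5 probe on the plus strand of chr3:179332782-179332841, both on hg19. The array annotation gives no genome position for the probes of NDUFS6 and NDUFA10.
NDUFV2: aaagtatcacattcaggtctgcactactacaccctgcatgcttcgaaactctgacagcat
NDUFS6: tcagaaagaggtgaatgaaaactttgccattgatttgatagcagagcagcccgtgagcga
NDUFA10: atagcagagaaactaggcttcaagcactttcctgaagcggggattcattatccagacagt
NDUFB5: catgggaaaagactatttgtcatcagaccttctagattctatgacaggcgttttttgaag

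ACHN cells of both groups carried RNA for almost the whole NDUF family. Of the 48 probes, 47 were detected on all 7 arrays (97.9%), against 45.2% of all probes on the array, and the exception was NDUFA4L2. Every core subunit, every accessory subunit on the list and all 4 NDUFAF assembly factors had at least 1 such probe, so 47 probes of 42 genes were tested. None of the 47 differed between ACHN-HOTAIR and ACHN-EV cells at an adjusted p under 0.05 by limma, where 0.167% of all 20419 tested probes did. None reached an unadjusted p under 0.05 either, against 5.85% of all tested probes. The lowest adjusted p among them was 0.896. The rank product called 0 NDUF probes and 74 of all probes. The exact Mann-Whitney U test cannot go below p = 0.0571 with these group sizes and could call no probe.

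The size of the differences was small for each of the 47 probes. They ran from -0.35 for an NDUFC2 probe to 0.34 for NDUFA6 on the log2 scale, so that no probe differed by as much as 2-fold. The 95% confidence interval of the difference lay within 2-fold for 46 of them, and for the remaining one, the NDUFA10 probe shown above, it ran from -0.53 to 1.18. The median width on either side of the estimate was 0.30, so changes of under about that size could not be resolved for most of these genes. The median SD between arrays of a group over the NDUF probes was 0.15 in ACHN-EV and 0.11 in ACHN-HOTAIR samples, against 0.23 and 0.17 over all tested probes. Without EV 2 the ACHN-EV values were 0.14 and 0.15.

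**Figure D1:**
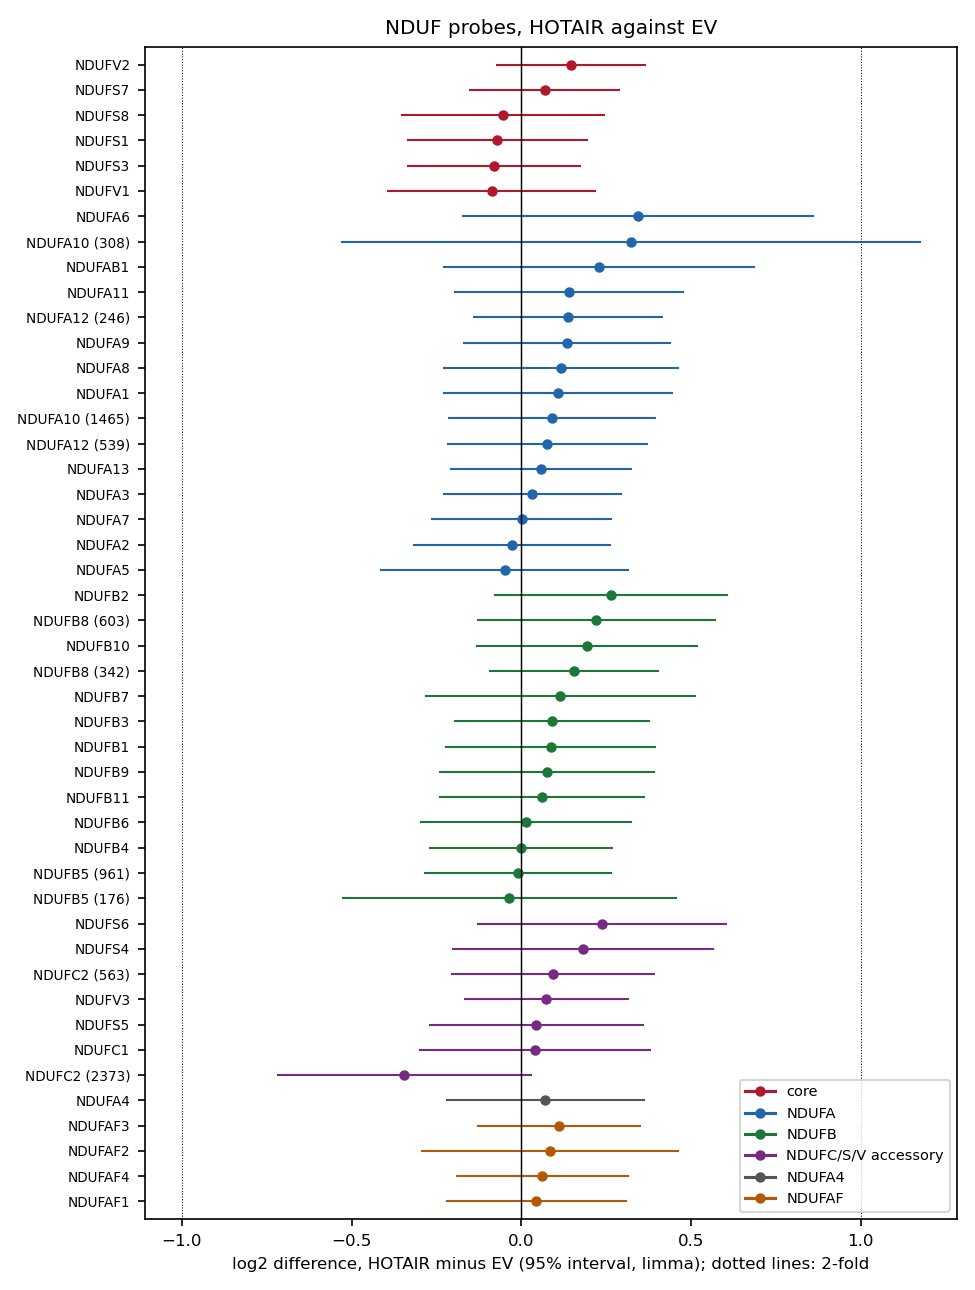
Log2 difference between ACHN-HOTAIR (3 arrays) and ACHN-EV (4 arrays) for 46 of the 47 tested NDUF probes, ordered by role, with 95% confidence intervals from limma. Numbers in brackets give the start of the probe in the transcript for genes with a pair of probes, and every estimate shown lies between -0.35 and 0.34.

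More of the estimates were positive than negative. The difference was above 0 for 37 of the 47 probes (78.7%), against 52.8% of all tested probes, and the median was 0.08, against 0.01. These probes were measured on the same 7 arrays and are not independent of each other, so no test was made over them. The median over the 47 probes was 3.78, 3.73, 3.71 and 3.89 on EV 1 to 4 and 3.87, 3.87 and 3.71 on HOTAIR 1 to 3. The groups overlapped in this median, since EV 4 was the highest of all arrays and HOTAIR 3 was below EV 1, 2 and 4. In RNA from a whole culture, a change in RNA per cell and a change in the makeup of the culture cannot be told apart.

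Of the 7 nuclear core subunits, 3 had a positive and 4 a negative estimate, with a median of -0.05. The flavoprotein NDUFV2, which carries an iron-sulfur cluster next to the flavin site, had the values 4.44, 4.41, 4.37 and 4.44 on EV 1 to 4 and 4.61, 4.57 and 4.51 on HOTAIR 1 to 3. All 3 HOTAIR arrays lay above all 4 EV arrays, and the SDs were 0.03 and 0.05. The difference was 0.15 (SE 0.09), an increase of 1.11-fold, with a limma adjusted p of 0.949, and the exact permutation test of the group means gave p = 0.0286, two-sided, the smallest that the 35 splits of the arrays allow. With NDUFS6, NDUFV2 was 1 of 2 NDUF probes (4.26%) whose HOTAIR arrays lay wholly above the EV arrays, where 4.20% of all tested probes did. No NDUF probe had its HOTAIR arrays wholly below, where 3.50% of all tested probes did. With quantile normalization the groups of 2 NDUF probes did not overlap, and the HOTAIR arrays lay above in 1 of the 2.

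NDUFV1, which binds NADH and the flavin, had 4.51, 4.35, 4.38 and 4.06 on EV 1 to 4 and 4.24, 4.32 and 4.17 on HOTAIR 1 to 3, with overlapping groups. NDUFS1, the largest iron-sulfur subunit of the NADH-oxidising module, had 4.15, 4.37, 4.15 and 4.34 in ACHN-EV and 4.12, 4.14 and 4.29 in ACHN-HOTAIR cells. The estimates were -0.09 (SE 0.13) and -0.07 (SE 0.11). Without single arrays NDUFV1 ranged from -0.17 (without EV 4) to -0.03 (without EV 1) and NDUFS1 from -0.12 (without HOTAIR 3) to -0.03 (without EV 2), and NDUFS1 was 0.0011 with normexp background correction.

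NDUFS3, NDUFS7 and NDUFS8 belong to the module that hands electrons to ubiquinone. NDUFS3 had 3.53, 3.73, 3.57 and 3.79 in ACHN-EV and 3.59, 3.54 and 3.59 in ACHN-HOTAIR cells. NDUFS7, which holds the last cluster before ubiquinone, had 2.47, 2.57, 2.44 and 2.48 on EV 1 to 4 and 2.60, 2.53 and 2.55 on HOTAIR 1 to 3. NDUFS8 had 4.20, 4.38, 4.04 and 4.39 in ACHN-EV and 4.32, 4.13 and 4.15 in ACHN-HOTAIR cells. Their groups overlapped, and the estimates were -0.08, 0.07 and -0.05. With normexp background correction NDUFS7 was 0.17. Without single arrays NDUFS3 ranged from -0.12 (without EV 1) to -0.03 (without EV 4), and NDUFS8 was -0.12 without EV 3 and -0.01 without EV 2 or EV 4.

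**Figure D2:**
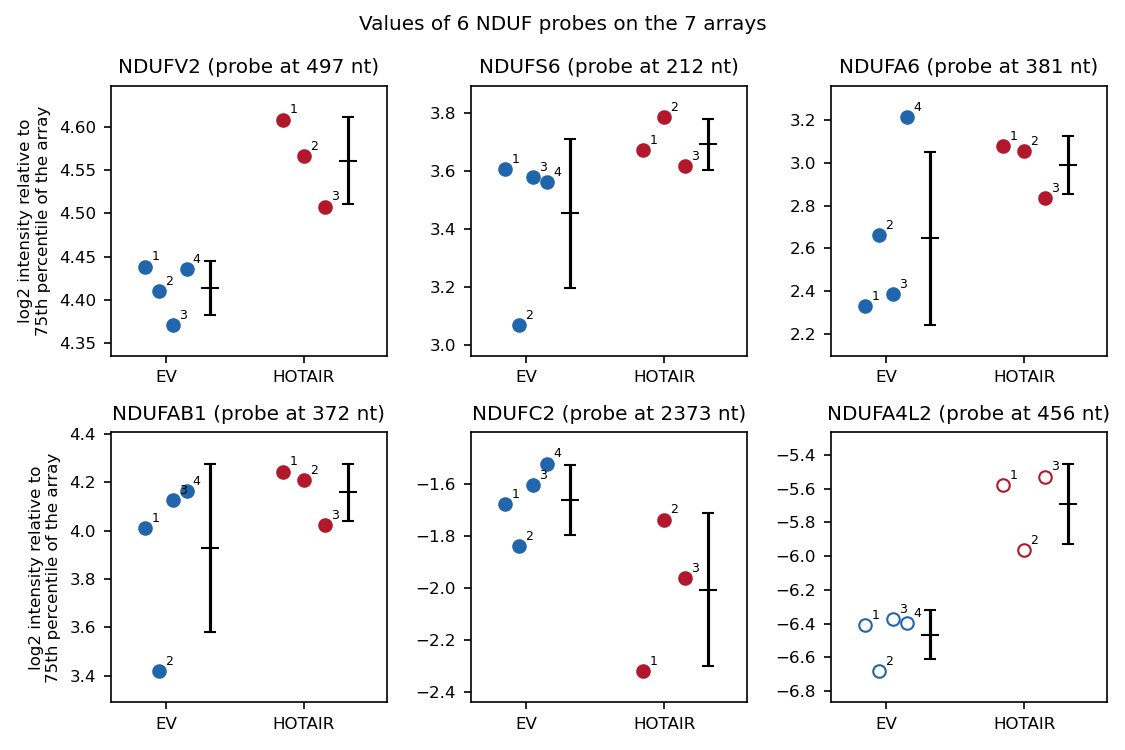
Log2 intensity relative to the 75th percentile of the array for 6 NDUF probes, with the array number beside each point, the mean and the SD, and a separate vertical axis for each probe. Filled points mark tested probes and open points the NDUFA4L2 probe, which was well above background on none of the arrays. The groups do not overlap for NDUFV2 and NDUFS6, and EV 2 stands far below the other EV arrays for NDUFAB1 and NDUFS6.

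Among the accessory subunits named NDUFA, which sit around the core and in the membrane arm, 11 of 13 genes had a positive estimate, with a median of 0.11, and 0 passed the limma test. NDUFA6 had the largest estimate of the family. It was 2.33, 2.66, 2.38 and 3.21 on EV 1 to 4 and 3.08, 3.06 and 2.83 on HOTAIR 1 to 3. EV 1, 2 and 3 lay below all HOTAIR arrays and EV 4 lay above them, so the groups overlapped. The difference of 0.34 (SE 0.22, 1.27-fold) had an adjusted p of 0.952, and without EV 4 it was 0.53.

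NDUFAB1, the mitochondrial acyl carrier protein, which also serves fatty acid synthesis, had 4.01, 3.42, 4.13 and 4.16 in ACHN-EV and 4.24, 4.21 and 4.02 in ACHN-HOTAIR cells. Its estimate of 0.23 (SE 0.20) became 0.06 without EV 2. The 2 NDUFA genes with a negative estimate were NDUFA2 (-0.03) and NDUFA5 (-0.05). The NDUFA9 probe (0.14) is placed by the array annotation on chromosome 22, while RefSeq lists the gene on chromosome 12, so its value may not belong to that gene.

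The NDUFB subunits belong to the membrane arm, and 9 of 11 had a positive estimate, with a median of 0.09. NDUFB2 had 5.22, 5.44, 5.27 and 4.95 on EV 1 to 4 and 5.44, 5.66 and 5.35 on HOTAIR 1 to 3. HOTAIR 1 and 3 did not exceed EV 2, and the estimate was 0.26 (SE 0.15, adjusted p = 0.936). It was 0.18 without EV 4 and 0.44 with normexp background correction. The estimates closest to 0 in this set were those of NDUFB4 (-0.002, values from 4.69 to 4.98 over all 7 arrays), the NDUFB5 probe nearer the 3′ end (-0.01) and NDUFB6 (0.01).

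All 6 accessory genes named NDUFC, NDUFS or NDUFV had a positive estimate when each gene was read from its brightest probe, with a median of 0.08. NDUFS6, which carries a zinc site and is needed late in assembly, had 3.61, 3.07, 3.58 and 3.56 on EV 1 to 4 and 3.67, 3.79 and 3.62 on HOTAIR 1 to 3. The groups did not overlap, but HOTAIR 3 exceeded EV 1 by less than 0.01, while EV 2 lay far below the other EV arrays. The difference was 0.24 (SE 0.16, adjusted p = 0.958), and 0.11 without EV 2. The probes of NDUFS6 and NDUFS5 were each printed in 10 spots, and the median SD between spots of an array was 0.09 and 0.06. The SDs between arrays were 0.26 and 0.18 in ACHN-EV and 0.09 and 0.12 in ACHN-HOTAIR samples.

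The assembly factors NDUFAF1, NDUFAF2, NDUFAF3 and NDUFAF4 had positive estimates of 0.04, 0.08, 0.11 and 0.06, and none passed the test. The NDUFAF2 probe is placed on chromosome 2 by the array annotation, while RefSeq lists the gene on chromosome 5. A further 10 assembly factors that do not carry the NDUF prefix on this array, among them ECSIT, ACAD9, TMEM126B and NUBPL, had 4 positive and 6 negative estimates with a median of -0.002. The largest in size was that of C20orf7, which RefSeq lists as NDUFAF5, an arginine hydroxylase that acts on NDUFS7 early in assembly. It had 1.23, 1.31, 1.20 and 1.18 on EV 1 to 4 and 0.79, 1.01 and 1.06 on HOTAIR 1 to 3. All HOTAIR arrays lay below all EV arrays. The difference was -0.28 (SE 0.11), with an unadjusted p of 0.0373 and an adjusted p of 0.785 by limma, so it did not pass the test over all probes.

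NDUFA4 and NDUFA4L2 carry NDUF names, while RefSeq now lists them as COXFA4 and COXFA4L2, and NDUFA4 is known as a subunit of cytochrome c oxidase, complex IV. NDUFA4 had 6.24, 6.52, 6.33 and 6.60 on EV 1 to 4 and 6.55, 6.53 and 6.40 on HOTAIR 1 to 3, with overlapping groups and an estimate of 0.07 (SE 0.12), which was 0.01 without EV 1 and 0.13 without EV 4. NDUFA4L2 was well above background on none of the arrays, and was therefore not tested. Its readings were -6.41, -6.68, -6.37 and -6.40 on EV 1 to 4 and -5.58, -5.96 and -5.53 on HOTAIR 1 to 3. All HOTAIR readings were above all EV readings, where 5.74% of all probes did not overlap in one direction or the other when dim probes were kept. As both groups were below the detection call, no test or fold is given. Of 10 other HIF targets, CA9 and EGLN3 were likewise well above background on none of the arrays. The other 8 were tested, with 4 positive and 4 negative estimates, and the largest was that of NDRG1 (0.40, SE 0.14, unadjusted p = 0.0271, adjusted p = 0.750), whose HOTAIR arrays all lay above the EV arrays. The most negative was that of ADM (-0.09).

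Within the groups, EV 2 and HOTAIR 3 stood apart from the other arrays. The first principal component of the values over all tested probes held 51.8% of the variance. It was taken without centring by group, so it includes any difference between the groups. The scores were 74.0 for EV 2, 21.1 for HOTAIR 3 and negative for the other 5. On these 2 arrays the probe nearer the 5′ end of a transcript read low against the probe nearer the 3′ end. The median difference over 1777 transcripts with probes at least 500 bases apart was -0.29 on EV 2 and -0.20 on HOTAIR 3, and between 0.05 and 0.16 on the others. The NDUF probes followed this split, with a correlation of 0.66 between the deviations on EV 2 and on HOTAIR 3 across the 47 probes, against 0.62 across all tested probes. The SD of the NDUF deviations was 0.24 on EV 2 and between 0.08 and 0.16 on the others.

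**Figure D3:**
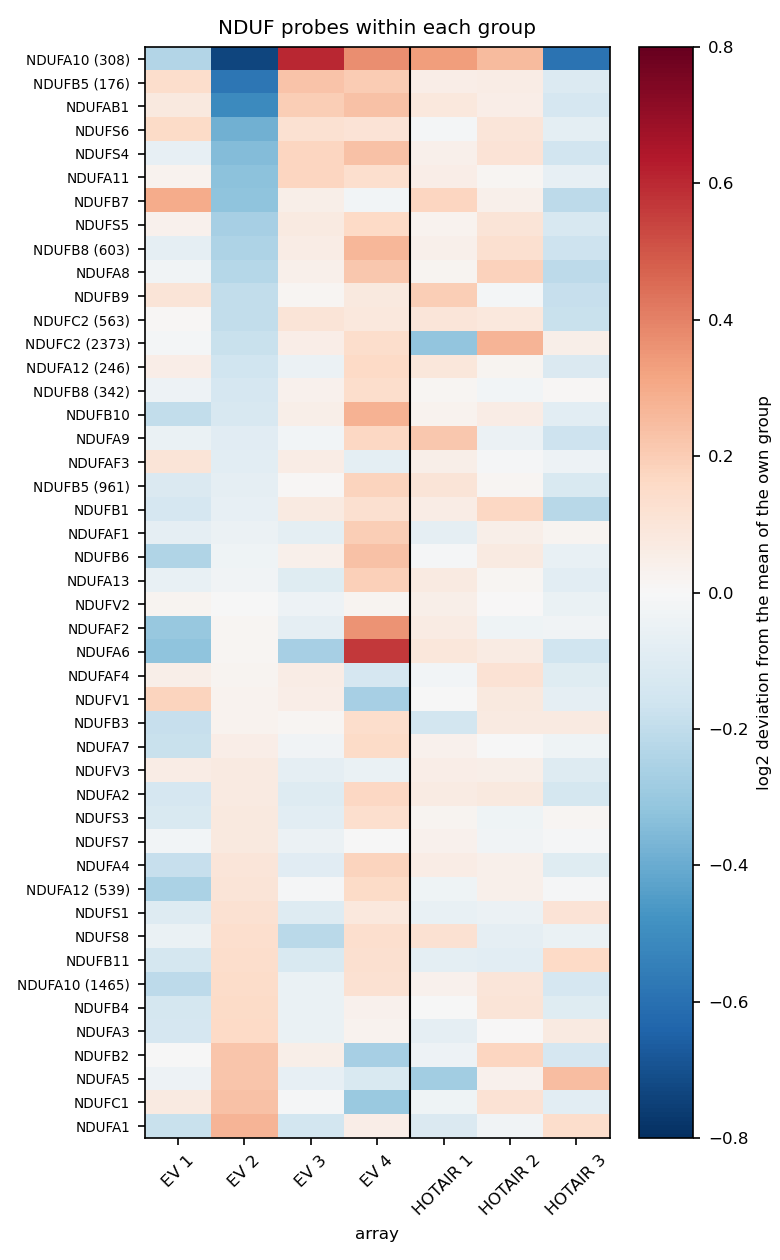
Deviation of 46 of the 47 tested NDUF probes from the mean of its own group on each array (log2), ordered by the deviation on EV 2, with the group boundary as a black line. EV 2 runs from -0.74 for the NDUFA10 probe at 308, which is also the lowest on HOTAIR 3, to 0.27 for NDUFA1.

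Among the probes furthest below the group mean on EV 2 were those of NDUFA10 (-0.74), NDUFB5 (-0.58) and NDUFAB1 (-0.51), while those furthest above were NDUFA1 (0.27) and NDUFC1 (0.24). The 11 tested probes for which the array annotation gives no genome position had a median deviation of -0.33 on EV 2, and the 36 with a position had 0.005. On HOTAIR 3 these medians were -0.08 and -0.09. The number of G and C bases per probe, between 15 and 40 of 60, had a correlation of -0.10 with the deviation on EV 2 across the 47 probes, and of 0.38 on both EV 1 and HOTAIR 1. On HOTAIR 2, EV 4, HOTAIR 3 and EV 3 this correlation was -0.29, -0.17, -0.14 and -0.01. The part of the 5′ end and of base composition in the group difference was not tested.

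A total of 5 genes had a pair of tested probes, which allows the position in the transcript to be compared within a gene. For NDUFA10, an accessory subunit related to nucleoside kinases, the probe that starts at base 308 lay 0.74 below its group mean on EV 2 and 0.59 below on HOTAIR 3. The probe at base 1465 lay 0.15 above on EV 2 and 0.14 below on HOTAIR 3. The group difference was 0.32 (SE 0.37) at base 308 and 0.09 (SE 0.13) at base 1465, so the larger estimate came with the larger spread. At base 308 it was 0.08 without EV 2, 0.52 without EV 3, 0.15 without HOTAIR 1, 0.20 without HOTAIR 2 and 0.62 without HOTAIR 3, and at base 1465 it lay between 0.02 (without EV 1) and 0.16 (without HOTAIR 3).

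For NDUFB5 the probe at base 176 lay 0.58 below on EV 2 and the probe at base 961 lay 0.07 below, while the group differences were -0.03 and -0.01. For NDUFA12, whose probes start at bases 246 and 539, the deviations on EV 2 were -0.16 and 0.10 and the group differences 0.14 and 0.08. At base 246 the difference was 0.085 without EV 2 and 0.0056 with normexp background correction. NDUFB8 was the exception in this respect, with deviations on EV 2 of -0.14 at base 342 and -0.25 at base 603 and group differences of 0.16 and 0.22, the latter 0.14 without EV 2. In 4 of the 5 genes the 5′ probe thus deviated further downward on EV 2 than the 3′ probe, by between 0.02 and 0.88. On HOTAIR 3 the 5′ probe deviated further downward for NDUFA10, NDUFA12 and NDUFC2. It did not for NDUFB5 (-0.11 at the 5′ and -0.12 at the 3′ probe) or NDUFB8 (0.01 and -0.17).

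NDUFC2 was the gene whose probes disagreed in sign. The probe at base 563 had 3.52, 3.32, 3.62 and 3.60 on EV 1 to 4 and 3.70, 3.69 and 3.43 on HOTAIR 1 to 3, a difference of 0.09 (SE 0.13) that was 0.03 without EV 2 and 0.18 without HOTAIR 3. The probe at base 2373 had -1.68, -1.84, -1.61 and -1.52 on EV 1 to 4 and -2.32, -1.74 and -1.96 on HOTAIR 1 to 3. The latter had the most negative estimate of the family, -0.35 (SE 0.16, unadjusted p = 0.0649, adjusted p = 0.896), and without HOTAIR 1 it was -0.19. It lies on the minus strand of chr11:77779435-77779494 and the former on the same strand of chr11:77790643-77790702, both on hg19. Both probes carry the same gene name, and the array annotation places both in the same transcript. Whether either one also reads other transcripts was not analysed.

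**Figure D4:**
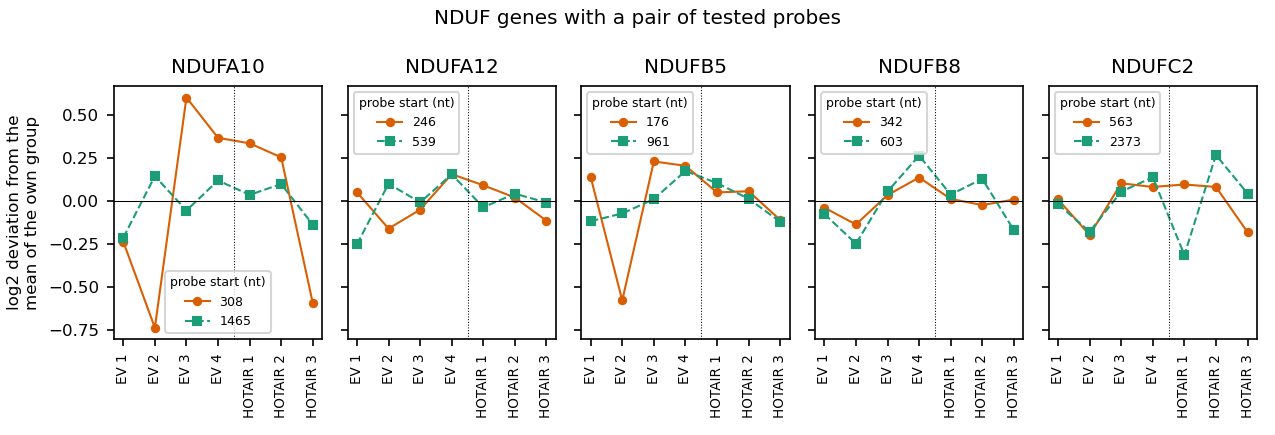
Log2 deviation from the mean of the own group on each array for the 5 NDUF genes with a pair of tested probes, with the start of each probe in the transcript (nt) in the legend and a dotted line between the groups. The probes of NDUFA10 at 308 and NDUFB5 at 176 fall to -0.74 and -0.58 on EV 2, while those at 1465 and 961 stay between -0.07 and 0.15 there.

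The other complexes of oxidative phosphorylation gave a frame for these values. None of their tested genes reached an adjusted or an unadjusted p under 0.05 by limma, where 0.167% and 5.85% of all tested probes did. In complex II, succinate dehydrogenase, 5 of 6 genes had a negative estimate with a median of -0.04, from SDHD (-0.07) to SDHAF2 (0.06). In complex III, 5 of 7 tested genes were positive with a median of 0.09, from UQCRB (-0.03) to UQCRQ (0.18).

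In complex IV, cytochrome c oxidase, all 12 tested genes were positive with a median of 0.12. The highest was COX6C, with 4.10, 4.45, 4.23 and 3.34 on EV 1 to 4 and 4.33, 4.68 and 4.46 on HOTAIR 1 to 3 (difference 0.46, SE 0.26, adjusted p = 0.939), and the lowest COX6B1 (0.03). EV 4 was well below the other arrays for COX6C, and the groups overlapped. Of the tissue-restricted isoforms, COX4I2, COX6A2 and COX8C were detected on none of the arrays and COX7A1 on 1, while COX6B2 was detected on all 7 (difference 0.13, SE 0.19). In complex V, the ATP synthase with its inhibitor, 10 of 16 genes were positive with a median of 0.03, from ATP5J2 (-0.12) to ATP5J (0.27). The estimates of the NDUF genes, each read from its brightest probe, fell within the range of complexes III to V. No test was made between complexes.

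**Figure D5:**
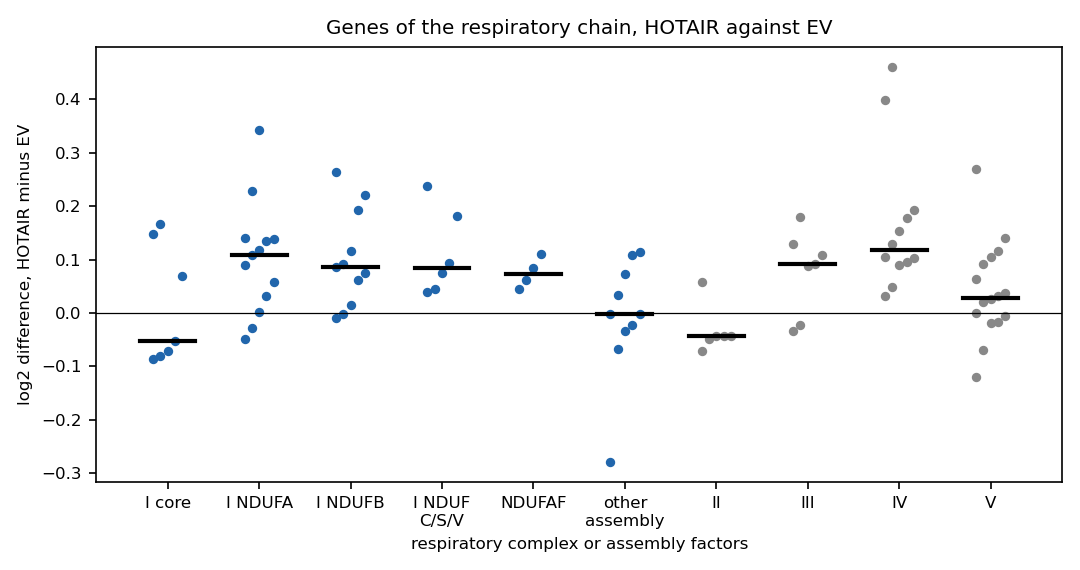
Log2 difference between ACHN-HOTAIR and ACHN-EV cells for the tested genes of respiratory complexes I to V and the complex I assembly factors, 1 point per gene from its brightest tested probe, with a black bar at the median. All 12 complex IV genes lie above 0, the 7 core complex I genes have a median of -0.05, and the lowest point is C20orf7 at -0.28.

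A list of 11 regulators of mitochondrial biogenesis, which drive transcription of nuclear respiratory genes or of mitochondrial DNA, was tested in full. Of these, 4 had a positive and 7 a negative estimate, with a median of -0.08. The coactivator PPARGC1B had -1.23, -1.51, -1.35 and -1.40 on EV 1 to 4 and -1.03, -1.06 and -0.96 on HOTAIR 1 to 3, so that all HOTAIR arrays lay above all EV arrays. Its difference was 0.36 (SE 0.11), with an unadjusted p of 0.0115 and an adjusted p of 0.565 by limma. The ETS-family factor GABPA had -0.01, -0.05, -0.08 and -0.36 on EV 1 to 4 and -0.62, -0.27 and -0.29 on HOTAIR 1 to 3, the most negative estimate of this set (-0.27, SE 0.14, adjusted p = 0.930). EV 4 fell among the HOTAIR arrays, so the groups overlapped. The factors NRF1 and YY1, whose binding motifs are described next, had estimates of -0.10 and -0.05.

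Promoter sequences of 38 of the 43 genes were available from RefSeq (GRCh38.p14), each with 250 bases before and 50 after the start. NDUFB5, NDUFB9, NDUFC2 and NDUFS5 were among those with no entry in the promoter set used here, although RefSeq lists these genes. Altogether 5 motifs were searched on both strands in these windows. The NRF1 motif GCGCATGCG was found in 5 of the 38 genes (13.2%), against 4.09% of the promoters of 8655 protein-coding genes with a tested probe and 2.34% of all 27305 genes. The YY1 motif AAGATGGCG was found in 6 (15.8%), against 4.83% and 2.14%.

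The ETS motif CCGGAAG was also found in 6 (15.8%), against 21.6% and 12.2%, and the CRE motif TGACGTCA in 2 (5.26%), against 3.66% and 2.25%. The ERR motif TCAAGGTCA was in none of the 38, against 0.277% and 0.432%. NDUFS7 was the 1 gene with a pair of different motifs, those of NRF1 and YY1. A match to these letters is a description of the window and does not show that a factor binds there. The genes with an NRF1 match were NDUFA5, NDUFA8, NDUFB4, NDUFS6 and NDUFS7, and their estimates were -0.05, 0.12, -0.002, 0.24 and 0.07.

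To show how such matches lie in a window, the stretch from 130 to 31 bases before the start is given for 3 genes, 5′ to 3′ on the gene's own strand with motifs in capitals. NDUFS6 (plus strand, chr5:1801277-1801376) has an NRF1 match that begins 46 bases before the start, NDUFA10 (minus strand, chr2:240025373-240025472) has a CRE match 48 bases before it, and NDUFS3 (plus strand, chr11:47578944-47579043) has ETS matches 102 and 83 bases before it on opposite strands.
NDUFS6: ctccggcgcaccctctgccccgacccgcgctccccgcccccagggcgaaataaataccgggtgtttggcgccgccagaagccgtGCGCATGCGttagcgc
NDUFA10: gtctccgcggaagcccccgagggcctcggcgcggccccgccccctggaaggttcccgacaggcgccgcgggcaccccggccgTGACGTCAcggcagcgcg
NDUFS3: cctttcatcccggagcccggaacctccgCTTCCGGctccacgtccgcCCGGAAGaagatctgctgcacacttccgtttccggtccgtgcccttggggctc
These 3 genes had estimates of 0.24, 0.32 or 0.09 by probe, and -0.08, and none passed the test, so the array data gave no difference to set beside the motifs.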

How the data were processed

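Gene expression was profiled in ACHN-EV (4) and ACHN-HOTAIR (3) samples. The authors extracted the images with Agilent Feature Extraction 10.7.3.1, per the labels, and deposited a processed intensity for each spot (background subtracted) with outlier, saturation and background calls. The deposited table of the same arrays holds this intensity in linear form, within 0.498% of it. Probe annotation is on hg19. The log2 intensity was taken, the 75th percentile over 58717 non-control spots was subtracted, 408 to 600 outlier spots per array were left out, spots of a probe were averaged, and 0 spots were saturated. Probes detected on all arrays of a group (20419) were fitted with limma 3.58.1 (lmFit, eBayes) in R 4.3.3, with Benjamini-Hochberg adjustment over all of them. The methods name a rank product, which was run over 12 array comparisons with 100 permutations, beside an exact Mann-Whitney test. A gene with several tested probes was read from the brightest.

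Named genes were the core subunits (one of them, and one kidney marker, are not reported here by name, though both stay in the fits and counts), NDUFA4 and NDUFA4L2, the 5 probes with the largest difference in each direction, genes with a pair of tested probes, and the extremes of each other list. Members and lists were chosen with earlier results of these data known. None of the names searched for the mitochondrially encoded subunits is a gene name on the array. Whether probes lie in coding sequence was not analysed here. Alternatives were normexp (offset 50), quantile normalization, other scaling, other filters, the deposited table, single arrays left out, a replicate block and trend with robust moderation. Tests were run on simulated arrays first. Leaving out both EV 2 and HOTAIR 3 was chosen after seeing the data.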

Additional observations from a re-analysis of the deposited data

Results flagged for a closer look

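The lowest or highest of the 4 EV arrays was examined for 47 of the 48 NDUF probes and for their median, by the gap to the nearest array as a share of the whole range. In 4 of these 48 sets the share exceeded Dixon's critical value for 4 samples, where chance alone gives about 1 in 20 (2.4 here). In 3 of the 4 the array was EV 2, which read low for NDUFS6 (share 0.912), for the NDUFB5 probe at base 176 (0.888) and for NDUFA4L2 (0.885), the last of which was not well above background. In the remaining set EV 4 read high for NDUFAF1 (0.883). EV 2 is also the array with the lowest readings of 5′ against 3′ probes (-0.29). Groups of 3 HOTAIR arrays were not examined in this way.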

How the results depend on the processing

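By limma, 0 NDUF probes were called at an adjusted p under 0.05 under the main setting and under every alternative run, and 0 by the rank product. Over all probes limma called 34 in the main setting, 9 without EV 1, 11 without EV 4, between 9 and 36 under the alternatives other than the replicate block, and 0 with that block, where no probe was called at all. The number of NDUF probes with an unadjusted p under 0.05, followed in brackets by the share of all tested probes in that setting, was 0 in the main setting (5.85%), 3 with normexp (5.59%), 1 with quantile normalization (6.18%), without a filter (4.71%), with the replicate block (5.25%), or without both EV 2 and HOTAIR 3 (9.11%), and between 0 and 2 when single arrays were left out (3.797% to 7.825%). The number of probes whose groups did not overlap was 2, between 2 and 8 without single arrays (8 without EV 4 or HOTAIR 3, 6 without EV 2, 4 without HOTAIR 2), and 13 without both EV 2 and HOTAIR 3. The HOTAIR arrays lay above in 2 of 2 in the main setting and in 1 of 2 with quantile normalization. They lay above in 4 of 6 without EV 2, 7 of 8 without EV 4 or HOTAIR 3, and 3 of 4 without HOTAIR 2. Without both arrays they lay above in 10 of 13. In the rest they lay below. The share of all probes whose groups did not overlap rose too, from 7.70% to 14.9% without EV 4, 21.2% without HOTAIR 3, 14.02% without EV 2 and 11.98% without HOTAIR 2, where the NDUF shares were 17.0%, 17.0%, 12.8% and 8.51%. With both arrays left out, 27.7% of the NDUF probes and 28.4% of all probes did not overlap. The median difference of the NDUF probes was 0.08 and ranged from 0.05 to 0.12, and 33 to 41 of them were positive, against a shift of the median of all probes between -0.02 and 0.06. Of 21 named probes, 6 changed sign under some alternative, each with an adjusted p above 0.9. The NDUFB5 probe at 961 was 0.077 with normexp, 0.012 with the percentile over detected probes, 0.033 in the deposited table, 0.049 with the replicate block, 0.026 without both arrays, and from -0.063 to 0.050 without single arrays. The NDUFB5 probe at 176 was 0.010 in the deposited table, 0.034 with the replicate block, and from -0.23 to 0.042 without single arrays. With normexp NDUFS1 was 0.0011 and NDUFS3 5.3e-05, and without a change of sign NDUFS7 moved to 0.17, NDUFS8 to -0.0028, NDUFA4 to 0.0035, NDUFA12 to 0.0056 at 246 and 0.033 at 539, NDUFA10 at 1465 to 0.050 and NDUFB8 at 342 to 0.098. With quantile normalization NDUFV1 was -0.15, NDUFS1 -0.12, NDUFS8 -0.10, NDUFA4 0.016, NDUFA10 at 1465 0.046 and NDUFB8 at 342 0.087. NDUFS8 was 0.016 without both arrays. Without single arrays NDUFA12 at 539 ranged from -0.0063 to 0.13. The cause was not tested. Deviations of samples with the same replicate number had correlations of 0.39, -0.37 and -0.41 over all probes, for numbers 1, 2 and 3. These cannot decide whether the numbers pair the arrays. Each deviation is taken from the mean of few arrays, and EV 2 and HOTAIR 3, with different numbers, had a correlation of 0.62. The replicate block leaves EV 4 without a partner and gave a median of 0.12 and the largest NDUF difference as 0.53. With 4 and 3 arrays, differences under about 0.30 on the log2 scale could not be resolved for most of these probes.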
